A study of Drosophila melanogaster with 4 samples.

Results

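Aminoacyl-tRNA synthetases are the enzymes that join each amino acid to its own tRNA, so that the codons of an mRNA are read as the right residues. Flies, like other animals, use separate nuclear genes for most of the cytoplasmic enzymes and for the enzymes imported into mitochondria, whose symbols end in -m. The enzymes fall into class I and class II by the fold of their catalytic domain, and in animals several cytoplasmic ones sit together in a multi-synthetase complex. The ovary makes large amounts of protein for the egg and depends on this supply of charged tRNAs.

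The mRNAs of these enzymes were followed in ovaries of Drosophila melanogaster labelled WT, in 2 pulldown libraries made with a mouse antibody against pseudouridine and in 2 input libraries. Pseudouridine is an isomer of uridine that is common in rRNA, tRNA and snRNA and also occurs in some mRNAs. Ovaries were homogenised in a detergent buffer, part of the homogenate was set aside as input, and the RNA that stayed on beads with the antibody after overnight incubation gave the pulldown. All 4 libraries were made as mRNA libraries, and the titles number both groups 1 and 3, which gives 2 pairs. For staged dissections, the methods take WT ovaries from UAS-Dcr2;nosGAL4 females a few days old that were fattened overnight, nosGAL4 being a germline driver. The account of the pulldowns itself repeats neither genotype nor age, and it gives no number of ovaries. The methods also name a mock pulldown with IgG. It was not analysed here, and modified RNA cannot be told apart from RNA held by antibody or beads for other reasons. The comparison asks which synthetase mRNAs were over- or under-represented with the antibody relative to the homogenate.

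Members were chosen by FlyBase symbol, a three-letter amino acid code followed by RS, or GluProRS, with or without -m. This rule matched 33 annotated genes, of which 31 were found among the 17023 genes listed, 17 cytoplasmic and 14 mitochondrial. LeuRS and PheRS-m were not matched by identifier and were not analysed here. The cytoplasmic PheRS has subunits with symbols of another form, alpha-PheRS and beta-PheRS, which are given with the related genes below. The low-count filter kept 30 of the 31 genes among 7085 tested genes and left out AspRS.

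The libraries differed in depth. Pulldown 1 held 984979 counts and pulldown 3 held 6338436 counts, against 4245717 in input 1 and 12684875 in input 3. The top 10 genes by reads made up 33.1% of pulldown 1 and 6.70% of pulldown 3, against 13.5% of input 1 and 6.34% of input 3, so pulldown 1 stood apart. The labelled tissue was checked with marker genes. The summed level of 6 follicle cell markers, mainly yolk protein and vitelline membrane genes, was 225438 and 23891 CPM (counts scaled to the library total) in the pulldowns, against 77555 and 15546 CPM in the inputs, and that of the 4 listed germline markers (of 6) was 870 and 1773 CPM, against 1352 and 2291 CPM. Muscle markers summed to 156 and 163 CPM in the pulldowns and 41.9 and 185 CPM in the inputs, fat body and gut markers to at most 2.03 CPM, and all 3 testis markers were at 0. The follicle cell sum was thus higher in each pulldown than in its own input, but in pair 1 Fas3 and in pair 3 Yp2, Yp3 and Fas3 were lower. The germline sum was lower in each pulldown than in its own input, with grk higher in pair 3. Between the pairs, fewer cells of a type and less RNA per cell cannot be told apart in such bulk libraries.

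The enzyme classes used below were assigned by amino acid, and class I signatures were searched for in the coding sequences. Class I enzymes carry a short active-site signature named HIGH, a histidine, any residue, a glycine and a histidine. This pattern was found in the longest coding sequence of 12 of the 17 class I members and of GluProRS, which holds a class I and a class II enzyme in a single chain, and in 0 of the 13 class II members. The class I members without the pattern were TyrRS, MetRS, TyrRS-m, TrpRS-m and GluRS-m. Another class I signature, the amino acid letters KMSKS, was found in 8 of the 17 class I members, among them TrpRS-m. It was in 0 of the 13 class II members. Of all 13968 protein-coding genes searched, 0.0859% held KMSKS and 3.65% held the HIGH pattern. The 30-base windows below, from the RefSeq dm6 genome and written 5′ to 3′ on the coding strand, show it in cytoplasmic and mitochondrial enzymes for the same amino acid and in the mitochondrial gene with the lowest fitted change, with the signature codons in capitals.
IleRS (chr3L:22289038-22289067, plus strand): gggctgcccCACTACGGACACattcttgct
IleRS-m (chr3L:16100624-16100653, plus strand): ggacaacttCACATGGGCCATgccgtcaac
ArgRS (chrX:15843249-15843278, minus strand): aaacagatgCATGTCGGTCACttgcggtcc
ArgRS-m (chr3R:7887679-7887708, plus strand): aaacccttcCACGTGGGCCACctgcgctcc
ValRS-m (chr3L:8964274-8964303, minus strand): gggaatctaCATTTGGGCCATgcactgatg
All 5 windows lie within a single coding exon.

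No synthetase mRNA passed the test between pulldown and input. Counts were compared with edgeR's quasi-likelihood test over all 7085 genes, and genes were called at an adjusted p below 0.05 with at least a 2-fold difference. 0 of the 30 members were called and each had an adjusted p of 0.9999, while 0% of all tested genes were called. At an unadjusted p below 0.05 there were 146 genes, 2.06% of those tested, and 0 members. With the replicate number as a block 0 genes were called, 293 genes and 2 members, LysRS and HisRS, fell below that unadjusted p, and the fitted log2 fold change of LysRS was 1.44. What the libraries held of each enzyme is therefore given as values.

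The cytoplasmic enzyme mRNAs sat on the pulldown side of zero in the fit, and the larger ratios were in pair 1. Of the 16 tested, 15 had a fitted log2 fold change above 0, with CysRS as the exception, and under total-count scaling 13 did, since AlaRS and ArgRS turned below 0. Their median was 0.56, with single SEs between 0.60 and 0.99, against a median of −0.07 and 46.2% of genes above 0 over all tested genes. Total-count scaling moved the median of all genes by −0.16. Relative to the median of all genes under the same scaling, the cytoplasmic median stood 0.63 higher with TMM factors and 0.52 higher with total counts.

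The 2 pairs did not give the same picture. Pair ratios were taken as log2 CPM of the pulldown minus that of its own input, after TMM scaling and with 2 as the prior count. In pair 1 the median ratio of the cytoplasmic enzymes was 1.22, against −0.31 for all tested genes, and 10 of the 16 were at least 2-fold higher in the pulldown, where 16.3% of all tested genes were. In pair 3 the median was 0.11, against −0.06, and 0 of the 16 were at least 2-fold higher, where 7.99% of all tested genes were. Of the 16 genes, 8 were above 0 in both pairs and 8 had opposite signs. The ratios of pair 1 moved with abundance, and 15 of the 16 lay in the highest of 3 equal bins of tested genes by mean CPM. In that bin the median ratio was −0.03 in pair 1 and −0.08 in pair 3. There, 338 of 2362 genes were at least 2-fold higher in pair 1.

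**Figure D1:**
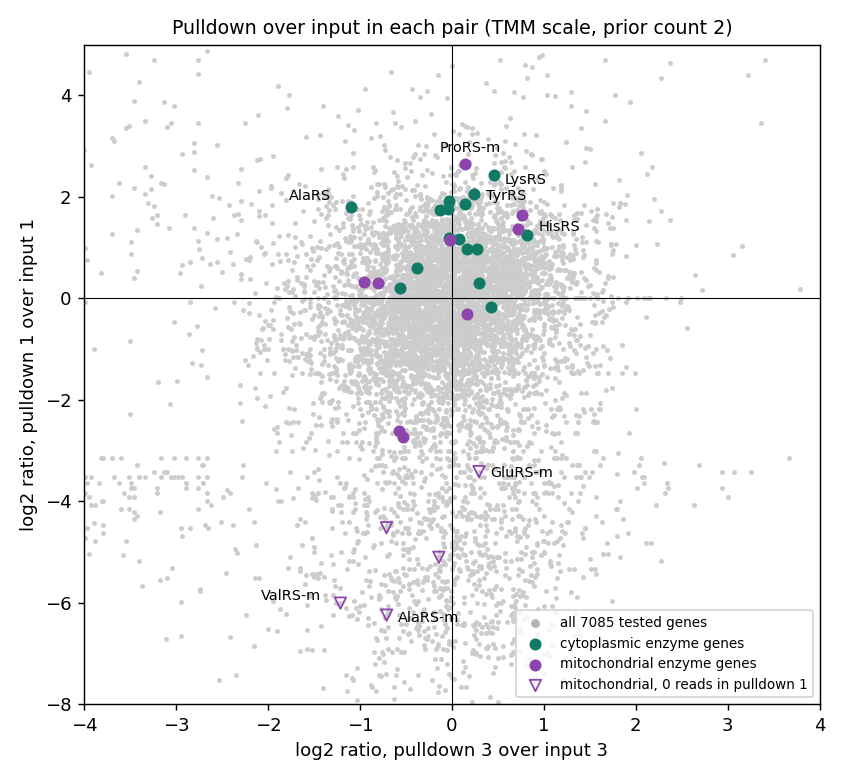
Log2 ratio of pulldown over input in pair 3 (horizontal) and in pair 1 (vertical) for 16 cytoplasmic and 14 mitochondrial enzyme genes over all 7085 tested genes in grey, of which 137 lie outside the axes. Cytoplasmic genes spread upward in pair 1, between −0.17 and 2.42, while in pair 3 they lie between −1.10 (AlaRS) and 0.82 (HisRS), and the open triangles are 5 mitochondrial genes with 0 reads in pulldown 1, whose height is set by the prior count.

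LysRS and TyrRS, which charge the tRNAs for lysine and tyrosine, had the highest fitted changes among the synthetases. LysRS, a class II enzyme of the complex encoded on chromosome X, was at 932 and 371 CPM in the pulldowns, against 230 and 281 CPM in the inputs. Both pulldowns lay above both inputs, a layout that 6.21% of all tested genes had and no other cytoplasmic member did. The fitted log2 fold change was 1.78 (SE 0.83, n = 2 each), with an adjusted p of 0.9999 in edgeR, and the pair ratios were 2.42 and 0.46. The fitted value was 0.40 without pulldown 1 and 2.47 without pulldown 3, and 1.78 without input 1 and 1.73 without input 3. TyrRS, a class I enzyme, was at 981 and 222 CPM in the pulldowns, against 313 and 196 CPM in the inputs. Pulldown 1 was far above the rest, while pulldown 3 lay between the inputs. Its fitted log2 fold change was 1.67 (SE 0.99, n = 2 each), with an adjusted p of 0.9999 in edgeR, and it became −0.41 when pulldown 1 was left out. LysRS and TyrRS together took 43.5% and 15.8% of the cytoplasmic enzyme reads in the pulldowns and 31.1% and 12.8% in the inputs, so this pair of mRNAs took a larger part of the cytoplasmic enzyme reads in both libraries numbered 1.

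ThrRS, AsnRS and AlaRS completed the 5 most abundant members per kilobase of exon in the inputs, and all are class II enzymes. ThrRS, the enzyme for threonine, was at 623 and 301 CPM in the pulldowns and 217 and 319 CPM in the inputs. Its fitted log2 fold change was 1.21 (SE 0.76), while its pair ratios were 1.92 and −0.03. Pulldown 3 was close to its input, and pulldown 1 was the high library. AsnRS, the enzyme for asparagine, was at 277 and 307 CPM in the pulldowns and 101 and 289 CPM in the inputs, with a fitted log2 fold change of 0.93 (SE 0.67). Here the pulldowns were close to each other and input 1 was the low library. AlaRS, the enzyme for alanine, was at 232 and 160 CPM in the pulldowns and 88.1 and 356 CPM in the inputs. Both pulldowns lay between the inputs, the pair ratios were 1.80 and −1.10, and AlaRS was the only cytoplasmic member at least 2-fold lower in pair 3, where 13.7% of all tested genes were. All 3 had an adjusted p of 0.9999 in edgeR.

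The other cytoplasmic members repeated the pattern of AsnRS or moved with the replicate number. IleRS was at 410 and 319 CPM in the pulldowns and 162 and 362 CPM in the inputs, and SerRS at 172 and 177 CPM in the pulldowns and 67.1 and 190 CPM in the inputs. These enzymes, for isoleucine and serine, had fitted log2 fold changes of 0.86 and 0.79. HisRS, the enzyme for histidine, was at 147 and 374 CPM in the pulldowns and 81.7 and 220 CPM in the inputs. It was above its own input in both pairs, by 1.25 and 0.82 on the log2 scale, although pulldown 1 lay below input 3. GlyRS, which charges glycine tRNA, was at 31.5 and 277 CPM in the pulldowns and 33.7 and 235 CPM in the inputs. Its inputs differed 6.97-fold, so its levels grouped by replicate number, and GluProRS, for glutamate and proline, differed 6.40-fold between the inputs. GlnRS, MetRS, ValRS, TrpRS, ArgRS and CysRS had fitted log2 fold changes between −0.28 (CysRS) and 0.61 (MetRS).

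**Figure D2:**
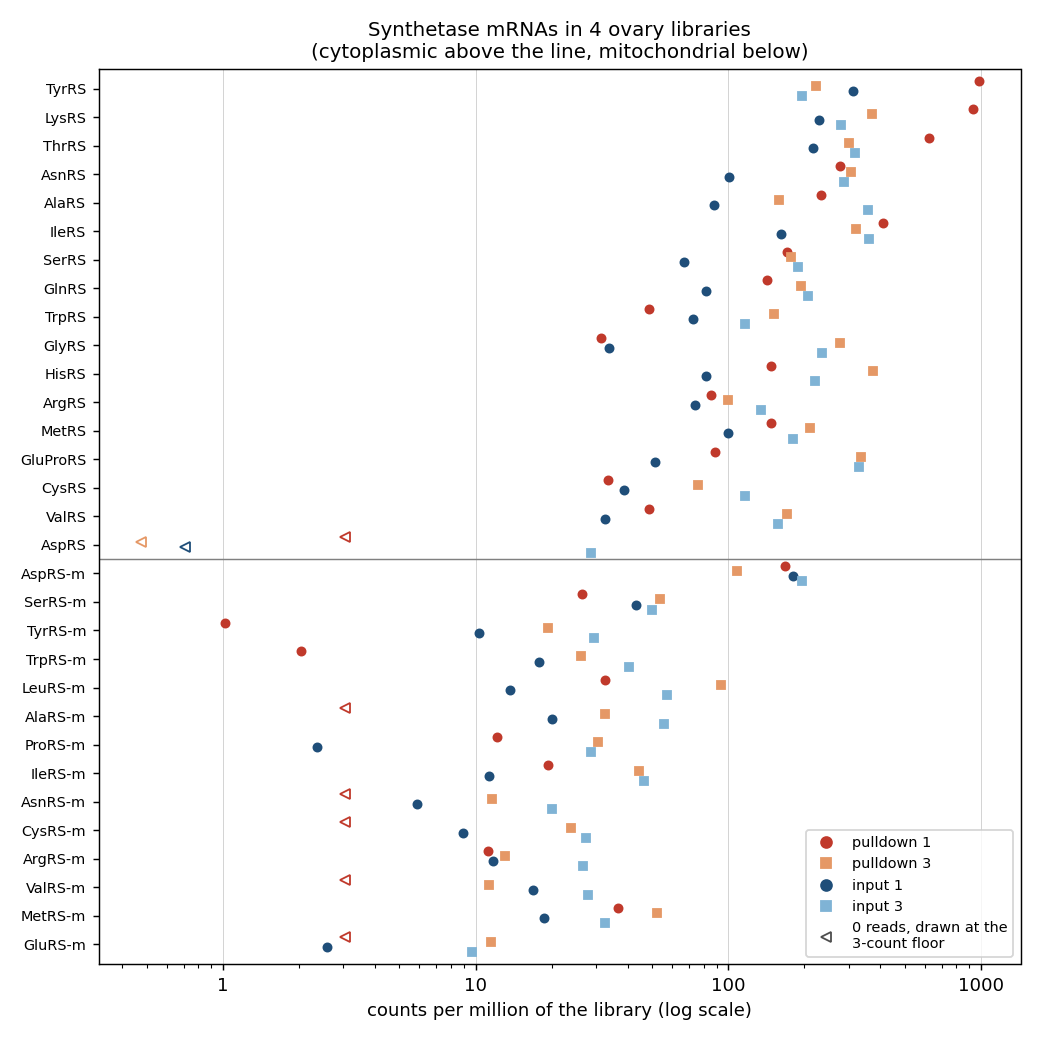
CPM on a log scale of the 31 synthetase genes in pulldown 1, pulldown 3, input 1 and input 3, with cytoplasmic genes above the line and mitochondrial genes below, each ordered by input level per kilobase. Open triangles mark 0 reads and are drawn at the level that 3 counts would give in that library. The cytoplasmic genes lie mostly between 31.5 and 981 CPM and the mitochondrial genes mostly below them, and the libraries numbered 3 lie to the right of input 1 for most genes.

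Input 1 stood lowest for the cytoplasmic enzymes as a group, as pulldown 1 stood highest. The 17 cytoplasmic genes took 0.440% of the counts of pulldown 1 (95% Wilson interval 0.427 to 0.453) and 0.375% of pulldown 3 (0.370 to 0.379), against 0.174% of input 1 (0.171 to 0.178) and 0.372% of input 3 (0.369 to 0.375). The intervals cover counting error only. Pulldown 3 and input 3 overlapped in their intervals, pulldown 1 was highest and input 1 was lowest. The pulldown share was 2.52 times the input share in pair 1 and 1.01 times in pair 3, while the inputs differed 2.13-fold from each other. The group means were 0.407 ± 0.046% in the pulldowns and 0.273 ± 0.140% in the inputs (SD, n = 2 each). With 2 libraries against 2 an exact permutation test cannot give a p below 0.333, and none was run on the shares.

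**Figure D3:**
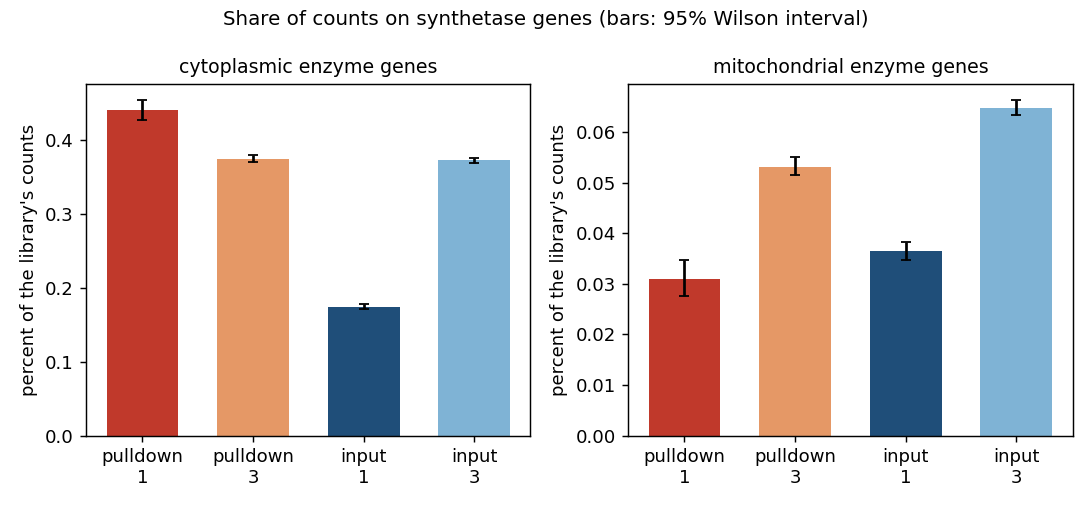
Percent of each library's counts on the 17 cytoplasmic (left) and 14 mitochondrial (right) enzyme genes, with 95% Wilson intervals as error bars. The cytoplasmic share was lowest in input 1 (0.174%) and highest in pulldown 1 (0.440%), and the mitochondrial share was higher in both libraries numbered 3.

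Leaving out a library gave a range for the cytoplasmic median. It was 0.40 without pulldown 1 and 0.65 without pulldown 3, and it was 0.08 without input 1 and 1.28 without input 3. In these fits the group with a single library is assumed to vary like the other group. Between 10 of 17 genes (without input 1) and 16 of 16 (without input 3) stayed above 0. The summed follicle cell markers were also higher in each pulldown than in its own input, with Fas3 lower in both pairs and Yp2 and Yp3 lower in pair 3, and the summed germline markers were lower. The part of either in these values was not tested.

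The members were also grouped by enzyme type. The 8 tested cytoplasmic class I genes had a median fitted log2 fold change of 0.45 and the 7 tested class II genes one of 0.93. The 6 tested genes of the multi-synthetase complex, which leave out AspRS and LeuRS, had a median of 0.56. The 10 tested cytoplasmic genes outside the complex had one of 0.59. In pair 1 the median ratios were 0.97 for class I and 1.80 for class II, while in pair 3 they were 0.07 and 0.14. At least 2-fold higher in pair 1 were 3 of 8 class I and 6 of 7 class II genes, where 16.3% of all tested genes were. In pair 3, 0 genes of either class were at least 2-fold higher, where 7.99% of all tested genes were. The difference between the classes was not tested. Base composition, which bears on how many uridines an mRNA offers, was also close. The median uridine content of the exons was 22.0% in the cytoplasmic and 23.8% in the mitochondrial genes, against 23.3% over all tested genes.

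AspRS, the cytoplasmic enzyme for aspartate, was listed at 0 in 3 libraries. It had 0 reads in pulldown 1 and 0 in pulldown 3, against 0 in input 1 and 363 (28.6 CPM) in input 3. A count of 0 allows a level of up to 3.05 CPM in pulldown 1, 0.473 CPM in pulldown 3 and 0.707 CPM in input 1. Of its 2266 exon bases, 1665 (73.5%) are shared with other genes, 1448 of them with asRNA:CR45141 on the opposite strand. The strand setting of the counting is not given in the sources used here, so its values are uncertain. Exon sharing was over 6% for 5 more members, GluProRS (16.6%), CysRS-m (14.3%), SerRS-m (14.0%), ArgRS-m (11.8%) and HisRS (8.91%). The counts of these genes are uncertain too, and the shared percentage does not give by how much.

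The mitochondrial enzyme mRNAs were scarcer, and their fitted median lay below 0. Their input level per kilobase of exon ran from 3.61 CPM for GluRS-m to 42.7 CPM for AspRS-m, against 27.9 CPM for ValRS to 144 CPM for TyrRS among the tested cytoplasmic genes. Of the 14 tested, 4 had a fitted log2 fold change above 0, and 6 did with upper-quartile factors. The median was −0.24, and single genes had SEs between 0.68 and 1.95. With at least 10 counts required in every library, which keeps 7 of the 14, the median turned to 0.31 with 4 above 0, and without a filter it lay 0.24 above the median of all genes. Relative to all tested genes under the same scaling the median was 0.17 lower with TMM factors and 0.28 lower with total counts. It was −0.02 without pulldown 1 and −1.70 without pulldown 3, and −0.68 without input 1 and −0.05 without input 3.

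**Figure D4:**
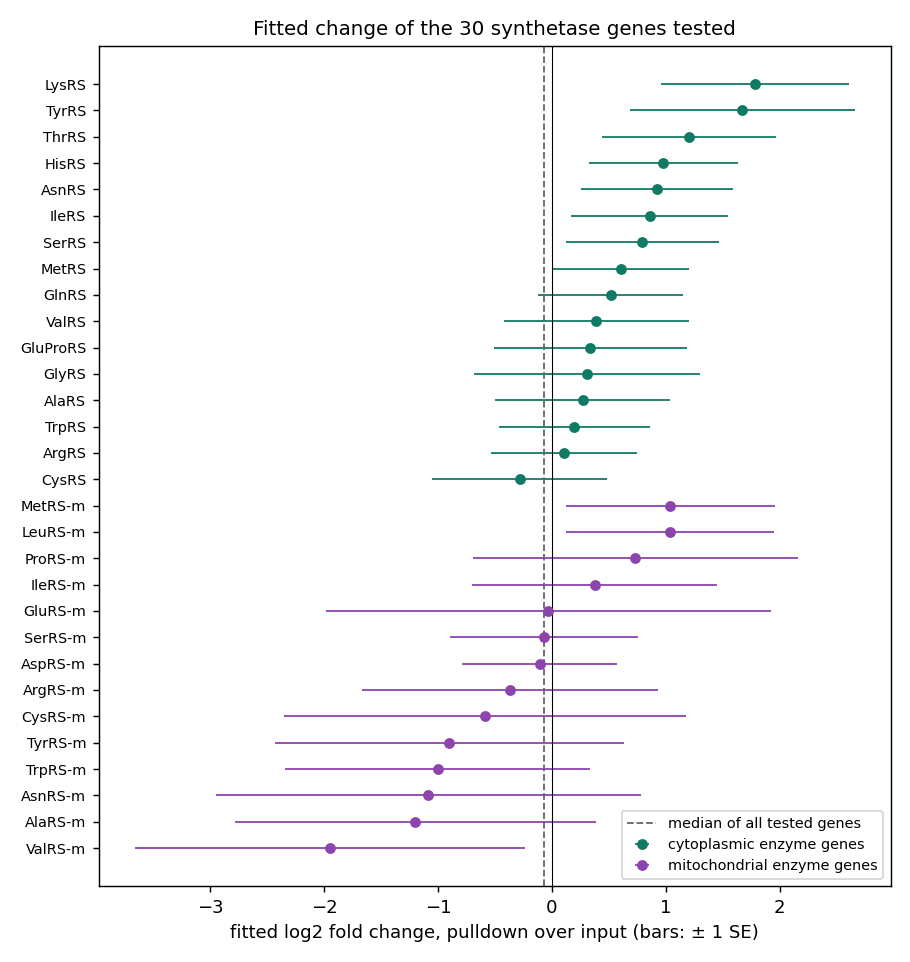
Fitted log2 fold change of pulldown over input for the 30 tested synthetase genes, with bars of 1 SE from edgeR, cytoplasmic genes above mitochondrial ones and the median of all tested genes (−0.07) as a dashed line. Values run from 1.78 (LysRS) to −1.95 (ValRS-m), and the bars of the mitochondrial genes are wider, up to 1.95 for GluRS-m.

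AspRS-m carried much of the mitochondrial signal. It was at 169 and 108 CPM in the pulldowns, against 181 and 196 CPM in the inputs, and made up 54.4% and 20.3% of the mitochondrial enzyme reads in the pulldowns and 49.7% and 30.2% in the inputs. Both pulldowns lay below both inputs, a layout that 20.0% of all tested genes had. The fitted log2 fold change was −0.11 (SE 0.68), and the pair ratios were 0.30 and −0.80. The ratio of pair 1 is above 0 only after TMM scaling, where the factor of pulldown 1 was 0.711. ValRS-m, which charges mitochondrial valine tRNA, was the other member with this layout, at 0 and 11.4 CPM in the pulldowns and 17.0 and 27.8 CPM in the inputs. It had the lowest fitted log2 fold change, −1.95 (SE 1.71), and an adjusted p of 0.9999 in edgeR. It was also the only member at least 2-fold lower in both pairs, which 6.41% of all tested genes were, with a ratio of −1.21 in pair 3 and 0 reads in pulldown 1.

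Of the 14 mitochondrial members, 5 had 0 reads in pulldown 1, the shallowest library. AlaRS-m was at 0 and 32.7 CPM in the pulldowns and 20.0 and 55.7 CPM in the inputs. Against the 3-count floor of pulldown 1 it was at least 6.57-fold lower than in input 1 in plain CPM, or 4.97-fold after TMM scaling. ValRS-m was at least 5.57-fold lower in plain CPM, or 4.21-fold after TMM scaling. CysRS-m was at 0 and 23.8 CPM in the pulldowns and 8.95 and 27.4 CPM in the inputs, and AsnRS-m at 0 and 11.7 CPM in the pulldowns and 5.89 and 20.1 CPM in the inputs. Their bounds in pair 1 were at least 2.94-fold and at least 1.93-fold lower in plain CPM, or 2.22-fold and 1.46-fold after TMM scaling. GluRS-m was at 0 and 11.5 CPM in the pulldowns and 2.59 and 9.70 CPM in the inputs, and input 1 lay below the floor of pulldown 1, so no difference could be detected at this depth. In pulldown 3 all 5 had between 72 and 207 reads. Their fitted log2 fold changes, from −1.95 to −0.03, depend on the prior count and are not bounds.

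Pair by pair the mitochondrial genes divided. In pair 1, 7 of 14 were at least 2-fold lower, where 35.3% of all tested genes were. Another 4 were at least 2-fold higher in that pair, where 16.3% of all tested genes were. The 7 include the 5 genes at 0 reads, of which 3 have a bound above 2-fold, and TyrRS-m and TrpRS-m. In pair 3, 1 was at least 2-fold lower and 0 were at least 2-fold higher, where 13.7% and 7.99% of all tested genes were. The median ratio was −1.47 in pair 1 and −0.34 in pair 3. With the genes at 0 reads set to their TMM-scaled bound, and without GluRS-m, which has none, the median of pair 1 was −0.31 (13 genes). These bounds, from −2.31 (AlaRS-m) to −0.55 (AsnRS-m), still lie below that median, so the shift came from leaving out GluRS-m. The values of pair 1 moved with abundance over all tested genes. Their median was −1.36 in the lowest of 3 equal bins of genes by mean CPM, −0.26 in the middle bin and −0.03 in the highest bin, against −0.10, −0.01 and −0.08 in pair 3. Of the mitochondrial genes 9 lay in the lowest bin, 4 in the middle and 1 in the highest, while 15 of the 16 cytoplasmic genes lay in the highest bin and 1 in the middle. The part of abundance in the cytoplasmic and mitochondrial values was not tested.

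TyrRS-m and TrpRS-m, for tyrosine and tryptophan, had 1 read and 2 reads in pulldown 1. TyrRS-m was at 1.02 and 19.4 CPM in the pulldowns and 10.4 and 29.3 CPM in the inputs, and TrpRS-m at 2.03 and 26.2 CPM in the pulldowns and 17.9 and 40.6 CPM in the inputs. Each pulldown lay below its own input, and pulldown 3 of both genes lay between the inputs. The fitted log2 fold changes were −0.90 (SE 1.53) and −1.002 (SE 1.34). SerRS-m, IleRS-m and ArgRS-m had fitted log2 fold changes of −0.07, 0.38 and −0.37, each smaller than its SE.

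Mitochondrial members on the pulldown side were few. MetRS-m, the mitochondrial methionine enzyme, was at 36.5 and 52.1 CPM in the pulldowns and 18.6 and 32.6 CPM in the inputs. Both pulldowns were above both inputs, as for LysRS and for 6.21% of all tested genes, and its fitted log2 fold change was 1.04 (SE 0.92). LeuRS-m, for leucine, was at 32.5 and 93.4 CPM in the pulldowns and 13.7 and 57.2 CPM in the inputs, with a fitted log2 fold change of 1.04 (SE 0.91). Each pulldown was above its own input, but pulldown 1 lay below input 3. Neither gene reached 2-fold in pair 3, so 0 of the 30 members were at least 2-fold higher in both pairs, where 1.61% of all tested genes were. ProRS-m was at 12.2 and 30.4 CPM in the pulldowns and 2.36 and 28.7 CPM in the inputs. It had the highest ratio of pair 1 among members, 2.64, which rests on 12 reads in pulldown 1 and 10 in input 1.

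The mitochondrial share of the libraries was 0.0310% and 0.0532% in the pulldowns and 0.0365% and 0.0649% in the inputs. The pulldown share was 0.848 times the input share in pair 1 and 0.820 times in pair 3, and the inputs differed 1.78-fold. Cytoplasmic enzyme reads outnumbered mitochondrial ones 14.2 and 7.04 times in the pulldowns and 4.78 and 5.74 times in the inputs. Both pulldowns were above both inputs in this ratio, which does not depend on how the libraries are scaled. The low ratio of input 1 goes with its low cytoplasmic share (0.174%), and the high ratio of pulldown 1 with the highest cytoplasmic share (0.440%) and the lowest mitochondrial share (0.0310%).

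The difference between replicates was larger than the difference between pulldown and input for 16 of the 30 members, 6 cytoplasmic and 10 mitochondrial, where it was for 62.9% of all tested genes. The order of member levels was compared between libraries. Spearman's rho over the 17 cytoplasmic genes was 0.85 between pulldown 1 and input 1 and 0.75 between pulldown 3 and input 3, against 0.76 between the inputs. Over the 14 mitochondrial genes these values were 0.35, 0.77 and 0.61. Mitochondrial rho was lowest, at 0.29, between pulldown 3 and input 1, and highest, at 0.81, between the pulldowns. Cytoplasmic rho was lowest, at 0.64, between the pulldowns, and highest, at 0.87, between pulldown 1 and input 3. All these values describe genes that share libraries and are not independent replicates.

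The promoters of the members were also searched for short elements as a description only, and their part in the ratios was not tested. The window ran from 250 bases before to 50 bases after the annotated gene start, and both strands were searched. The DNA replication-related element, TATCGATA, bound in flies by the factor DREF, was found in 4 of the 17 cytoplasmic and 0 of the 14 mitochondrial promoters, and in 9.36% of 13968 promoters. The core of the fly promoter element called motif 1, GGTCACAC, was in 1 cytoplasmic and 3 mitochondrial promoters and in 7.69% of all, and a core of the element bound by ATF4, TTGCATCA, was in 0 members and in 0.816% of all. A match describes letters and is not a shown binding site. The 4 matches to TATCGATA all lie before the gene start, and 30-base windows from the RefSeq dm6 genome are shown in the direction of transcription with the element in capitals, so that their flanks can be compared.
TrpRS (chr3R:9266958-9266987, minus strand): atatttctcatTATCGATAtttttaacagt
IleRS (chr3L:22288612-22288641, plus strand): tcggaacctacTATCGATAtcgcgaaccca
ArgRS (chrX:15844161-15844190, minus strand): gctgttatcgtTATCGATAggcgacgtgtg
AlaRS (chr2L:8381765-8381794, minus strand): atctctaaatcTATCGATAtctcatccagt
In pair 1 these 4 genes had log2 ratios of −0.17 (TrpRS), 1.74 (IleRS), 0.60 (ArgRS) and 1.80 (AlaRS), which include the lowest ratio among the cytoplasmic genes.

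Genes that work with the synthetases gave 0 calls as well. Of 19 listed partners, 18 were found by identifier and 16 were tested, with a median fitted log2 fold change of 0.49 and 12 above 0. The elongation factor gene eEF1alpha1 was not matched and was not analysed here. AIMP1, a scaffold protein of the multi-synthetase complex, was at 109 and 170 CPM in the pulldowns and 69.0 and 70.3 CPM in the inputs. Both pulldowns were above both inputs, as for 4 of the 16 tested partners in all and 6.21% of all tested genes. AIMP1 was the only listed partner at least 2-fold higher in both pairs (1.05 and 1.33), which 1.61% of all tested genes were. Its fitted log2 fold change was 1.18 (SE 0.62), with an adjusted p of 0.9999 in edgeR. The other scaffold genes, AIMP2 and AIMP3, had fitted log2 fold changes of 0.29 and 0.55.

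The PheRS subunits lay above 0 in the fit, as most cytoplasmic members did. The alpha-PheRS mRNA was at 154 and 135 CPM in the pulldowns and 101 and 151 CPM in the inputs, and the beta-PheRS mRNA at 105 and 116 CPM in the pulldowns and 53.2 and 150.3 CPM in the inputs. Their fitted log2 fold changes were 0.52 and 0.45. Both were below 0 in pair 3, at −0.10 and −0.31, where the median of the 16 tested cytoplasmic members was 0.11. Slimp, a fly SerRS paralogue located in mitochondria, was at 31.5 and 20.2 CPM in the pulldowns and 4.48 and 15.8 CPM in the inputs, with a fitted log2 fold change of 1.78 (SE 1.30). Among genes that bring charged tRNA to the ribosome, eEF1beta and eEF1delta were at 0.56 and 0.52, eEF1gamma at −0.05, and the mitochondrial factors mEFTu1, mEFTu2 and mEFTs at 0.78, −0.42 and −0.21. The amidotransferase genes GatA and GatB, whose products complete mitochondrial glutamine tRNA, were at 0.54 and 0.09. GatC had 0 reads in every library, with all of its exon bases shared with other genes, PolG2 being the main one. The kinase Gcn2, which senses uncharged tRNA, was at 0.22, and crc, the fly ATF4, at −0.48. For crc, 73.5% of the exon bases are shared with other genes, CG46314 being the main one.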

How the data were processed

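The deposited files hold unnormalised counts of reads for each gene. The authors aligned the reads and counted them per FlyBase identifier. The submitters' processing notes name HISAT2 2.1.0, featureCounts 1.4.6 and DESeq2 1.24.0 with the dm6 build. The strand setting is not given in the sources used here. Of 17023 genes, 16647 were matched to the Ensembl release 115 annotation of dm6. The 7085 genes that passed filterByExpr were tested with edgeR 4.0.16 in R 4.3.3, with TMM factors, group as the only term, the quasi-likelihood test, two-sided, and Benjamini-Hochberg adjustment, and the steps were tested on simulated data. The methods take input and pulldown from a shared homogenate, and libraries with the same number deviated together from the means of their groups (r = 0.41 over genes), so a replicate block was also fitted. Nothing else says that the 2 pairs are separate batches of flies, and p-values measure only the spread between these libraries. CPM are counts over the library total. Levels per kilobase divide by the exon length of the gene.

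Full values were given for the 5 members with the highest input level per kilobase, the 3 largest and 3 smallest fitted changes, members at least 2-fold in both pairs, and members at 0 in a single library of a group. Other members and partners are given by value or range. Members, gene lists and motifs were chosen with earlier results of these data known. Alternatives were upper-quartile and total-count scaling, no filter, a minimum of 10 counts per library, the block, edgeR's exact test, DESeq2 1.42.0, a prior count of 0.5, an adjusted p of 0.1, and leaving out libraries or pairs.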

Additional observations from a re-analysis of the deposited data

How the results depend on the processing

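The absence of called synthetase genes held under each alternative that kept all 4 libraries, among them the replicate block (0 calls over all genes). Without a filter and with DESeq2, 2 genes that are not synthetases were called. Leaving out libraries gave 0 to 479 calls over all genes, with 26 without pulldown 1 and 479 without pulldown 3, and 0 to 1 calls among synthetase genes. The synthetase gene called without pulldown 3 was AlaRS-m. In plain CPM it was at least 12.4-fold lower in pulldown 1, at the 3-count floor, than the mean of the inputs. Unadjusted p-values below 0.05 were found for 3 members without a filter, 2 with DESeq2 and 1 each with the exact test and with 10 counts in every library.

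The mean cytoplasmic share of the pulldowns, 0.407%, became 0.529% without the 10 genes with the most reads. Leaving out a library or a pair, the mitochondrial median ranged from −1.70 to −0.022. In these ranges TyrRS lay between −0.41 and 2.49, ThrRS between −0.029 and 1.92, AlaRS between −1.10 and 1.80, CysRS-m between −9.76 and 0.33, and GluRS-m between −8.19 and 0.84, where the low ends of the mitochondrial genes rest on 0 reads in the only pulldown left, depend on the prior count and are no bounds. AlaRS turned to −0.18 under total-count scaling and GluRS-m to 0.079 with upper-quartile factors. The causes were not tested. Of 65 values of the 10 named genes under alternatives with all libraries, 63 kept their direction and side of the threshold. Leaving out a library or a pair, 10 of 60 values of these genes changed direction.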
